A study of Homo sapiens with 16 samples.

Results

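The collagen genes described here are the protein-coding genes whose symbols follow the pattern COL, number, A, number, without COL17A1. They number 43 of the 60448 genes in the count tables, which hold 19657 protein-coding genes. By class they comprise 11 fibrillar, 6 basement membrane, 10 FACIT (fibril-associated, with interruptions in the helix) and 16 other collagens. RNA-seq read counts were compared in HMLER cells, human mammary epithelial cells that were immortalised and transformed with introduced genes, among them SV40 early region genes and an oncogenic HRAS. All 16 libraries come from this line, with 2 libraries in each of 8 groups, so every group shares that background. C1 and C2 are wild type: C1 was described by the submitters as stably epithelial, and C2 was sampled in a plastic epithelial state (C2-Epi) and in a mesenchymal state (C2-Mes). C1-sgControl (below, sgControl), also labelled wild type, carries a control guide. C1 cells knocked out for EED, a core subunit of the Polycomb repressive complex that methylates histone H3 lysine 27, gave sgEED-Epi and sgEED-Mes. C1 cells knocked out for KMT2D, a methyltransferase of histone H3 lysine 4 at enhancers, gave sgKMT2D-Epi and sgKMT2D-Mes. The labels do not say whether a group is a single clone or whether the libraries of a group came from separate cultures, and the p-values can speak only for the variation among these libraries. RNA came from cultured or sorted cells, and in such bulk RNA fewer cells of a type and less RNA per cell cannot be told apart.

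Collagens are matrix proteins in which several chains wind into a helix, and a given collagen type needs defined chains, often from different genes. Fibrillar collagens such as types I, III and V form the fibres of connective tissue, type IV forms the sheet of the basement membrane under epithelia, FACIT collagens decorate fibrils, and type VI forms beaded filaments beside cells. In the breast, epithelial cells contact a basement membrane of type IV collagen anchored by type VII, whereas fibroblasts make most of the fibrillar matrix. A gain of fibrillar collagen is a known feature of the epithelial to mesenchymal transition, in which epithelial cells lose cadherin junctions and acquire fibroblast-like properties.

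Several type IV genes lie head to head, so that a pair shares its promoter region. By RefSeq starts (GRCh38.p14), COL4A1 and COL4A2 are 127 bases apart, COL4A4 and COL4A3 are 419 bases apart, and COL4A6 and COL4A5 are 380 bases apart. The stretches of upstream DNA printed here are those beside genes on which the results turn: the region between COL4A4 and COL4A3, which rose together in sgEED-Mes, the region between COL4A6 and COL4A5, which rose together in C2-Mes but not in sgEED-Mes, and the regions before COL5A1, COL6A2 and COL12A1. They are RefSeq sequences outside GENCODE 29 exons, written 5′ to 3′, with capitals marking common promoter elements: the GC box with letters GGGCGG, the element known by its letters as the CCAAT box, and the TATA box, which has the letters TATAAA. Each was searched on both strands, so its reverse complement is in capitals too. The first lies at chr2:227164454-227164564 (plus strand), the second at chrX:108439588-108439837 (plus), the third at chr9:134641553-134641773 (plus), the fourth at chr21:46097862-46098096 (plus) and the fifth at chr6:75206054-75206303 (minus).
COL4A4 and COL4A3: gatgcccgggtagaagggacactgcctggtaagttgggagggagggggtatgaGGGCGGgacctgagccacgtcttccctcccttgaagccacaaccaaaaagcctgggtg
COL4A6 and COL4A5: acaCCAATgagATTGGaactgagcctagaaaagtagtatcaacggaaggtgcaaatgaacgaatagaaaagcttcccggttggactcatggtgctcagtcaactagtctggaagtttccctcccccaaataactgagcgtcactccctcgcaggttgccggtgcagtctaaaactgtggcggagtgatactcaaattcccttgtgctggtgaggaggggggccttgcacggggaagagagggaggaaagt
COL5A1: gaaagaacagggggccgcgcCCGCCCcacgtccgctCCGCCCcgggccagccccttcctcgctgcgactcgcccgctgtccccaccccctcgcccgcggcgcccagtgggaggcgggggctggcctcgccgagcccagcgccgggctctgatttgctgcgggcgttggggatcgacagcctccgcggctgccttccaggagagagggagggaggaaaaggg
COL6A2: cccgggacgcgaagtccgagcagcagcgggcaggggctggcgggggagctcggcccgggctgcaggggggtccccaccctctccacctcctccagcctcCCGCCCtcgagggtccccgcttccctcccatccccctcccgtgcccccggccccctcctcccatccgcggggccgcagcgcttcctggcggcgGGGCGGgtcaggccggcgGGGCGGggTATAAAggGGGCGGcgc
COL12A1: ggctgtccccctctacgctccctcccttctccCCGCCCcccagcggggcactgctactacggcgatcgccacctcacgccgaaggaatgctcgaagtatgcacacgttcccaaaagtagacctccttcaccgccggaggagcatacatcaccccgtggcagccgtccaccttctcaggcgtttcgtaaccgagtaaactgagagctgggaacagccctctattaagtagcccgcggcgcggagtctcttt
The COL4A6 and COL4A5 stretch holds CCAAT boxes on both strands near its 5′ end, and the COL6A2 stretch holds a TATA box between GC boxes. In windows of 250 bases before the start, a GC box was found in 18 of the 31 collagen genes with a RefSeq promoter, against 42.31% of 27305 promoters. The CCAAT box was found in 8 of 31 (33.04% of all promoters), the TATA box in 4 (11.13%) and the E2-box bound by ZEB and SNAI factors (CACCTG or CAGGTG) in 5 (17.51%). These letters were searched on both strands, and a match describes the sequence only.

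Library totals ranged from 18872124 to 31950649 counts, both ends in the C2-Mes group. Levels are given as CPM (read counts scaled to a common library size, after TMM adjustment), with replicate 1 first, and comparisons between genes use CPM per kilobase of annotated exon. This length merges all annotated exons of a gene (19.3 kb for COL4A2 and 11.1 kb for COL7A1) and can exceed that of the transcript made. Rankings and ratios between genes depend on this choice of length. A gene is said to have risen or fallen where the edgeR quasi-likelihood test gave a Benjamini-Hochberg adjusted p under 0.05 over 18285 tested genes, in the order of the groups as written; for groups that are not stages of a process the words mean higher or lower. CDH1 (E-cadherin) was at 211 to 395 CPM in the epithelial groups and at 0.0880 to 1.42 CPM in the mesenchymal ones. All 8 epithelial markers fell in the C2 and KMT2D transitions, and all 8 mesenchymal markers rose in every transition. In the EED transition 6 of 8 epithelial markers fell: KRT8, a keratin of simple epithelia, rose from 650 and 756 to 1033 and 877 CPM, and DSP, the desmosome protein desmoplakin, did not pass (1124 and 908 against 908 and 1089 CPM). Epithelial markers thus summed to 2378 to 2439 CPM in sgEED-Mes, against 120 to 158 CPM in the other mesenchymal groups, and their part in the collagen results of sgEED-Mes was not tested. EED transcript was at 26.7 and 29.6 CPM in sgEED-Epi against 26.6 and 21.6 in sgControl. It was at 5.22 and 5.50 CPM in sgEED-Mes against 11.2 and 12.5 in C2-Mes, which itself lay below C2-Epi (19.7 and 18.1). KMT2D was at 124 and 127 CPM in sgKMT2D-Epi against 89.9 and 70.9 in sgControl. In sgKMT2D-Mes it was at 86.6 and 76.8 CPM against 123 and 83.9 in C2-Mes, without passing. Transcript levels alone thus do not show the knockouts in the epithelial groups, nor that of KMT2D in sgKMT2D-Mes. Leukocyte markers summed to at most 0.284 CPM and muscle markers to at most 0.600 CPM in any library. The deposited names of the C2-Mes libraries differ in kind, replicate 1 carrying a name for a repeated preparation. These libraries stood apart from each other: of 10701 genes at 5 CPM or more, 11.87% differed over 2-fold, against 0.0186% to 4.13% in the other groups. Results that rest on C2-Mes are therefore also given without each library where the value moved.

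**Figure D1:**
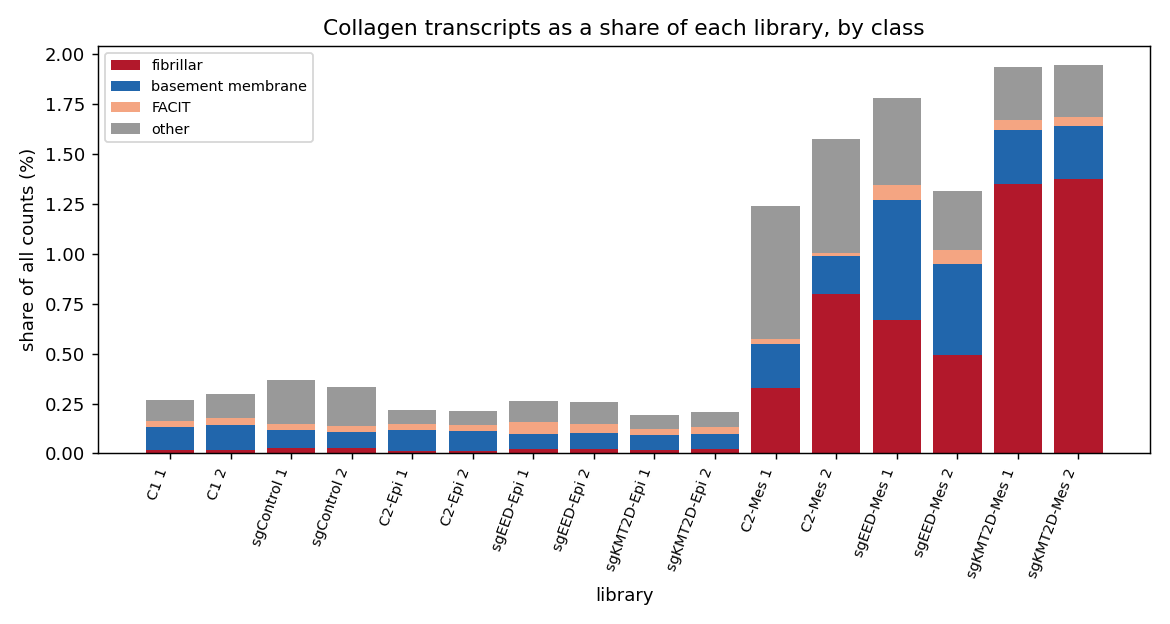
Share of all counts that fell in collagen genes (%, y axis) in each of the 16 libraries (x axis), stacked by collagen class. The range is 1.24% to 1.95% over 6 mesenchymal libraries and 0.192% to 0.370% over 10 epithelial ones.

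Mesenchymal libraries held more collagen transcript than epithelial ones in all 3 lineages, without overlap. Collagens took 0.215% and 0.211% of counts in C2-Epi and 1.24% and 1.58% in C2-Mes. They took 0.264% and 0.258% in sgEED-Epi and 1.78% and 1.31% in sgEED-Mes. In the KMT2D knockout they took 0.192% and 0.208% in the epithelial and 1.94% and 1.95% in the mesenchymal libraries. Fibrillar collagens took 1.35% and 1.38% of all counts in sgKMT2D-Mes, 0.668% and 0.494% in sgEED-Mes and 0.329% and 0.798% in C2-Mes. Basement membrane collagens took less than the fibrillar ones in each of these libraries, at 0.273% and 0.267% in sgKMT2D-Mes, 0.603% and 0.456% in sgEED-Mes and 0.221% and 0.190% in C2-Mes. Per kilobase and among these genes, COL7A1, the anchoring fibril collagen, led every epithelial group with 25.7% to 52.6% of the summed collagen level, and COL3A1, the chain of fibrillar type III collagen, led sgEED-Mes with 30.8% and sgKMT2D-Mes with 60.8%. In C2-Mes the leading gene depended on the library: COL6A1 (546 CPM per kilobase) and COL6A2 (506) stood above COL3A1 (396) in replicate 1, and COL3A1 (624) stood above COL6A1 (444) in replicate 2.

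Of the 43 members, 34 passed the filter on low counts and were tested. The 9 others (COL11A1, COL9A1, COL19A1, COL20A1, COL6A5, COL6A6, COL10A1, COL23A1 and COL26A1) had 1 to 18 counts over all 16 libraries and never exceeded 0.256 CPM. Among the tested members, 7 stayed under 5 CPM in every library. From C2-Epi to C2-Mes, 22 rose, 5 fell and 7 did not pass; 39.6% of all tested genes were called in this comparison, 21% as higher and 18.6% as lower, against 79.4% of the tested collagens. From sgEED-Epi to sgEED-Mes, 22 rose and 5 fell, where 36.5% of all genes were called, 19.2% higher and 17.3% lower. From sgKMT2D-Epi to sgKMT2D-Mes, 23 rose and 4 fell, where 50.8% of all genes were called, 26.8% higher and 24% lower. The median log2 change of the tested members was 1.87, 1.83 and 2.34 in these transitions, beside 0.01, 0.01 and 0.02 over all genes. With members at 0 in a group set to their bound (a floor of 3 counts per library), the C2 median was 1.45 and the others were as given.

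A set of 14 members rose in all 3 transitions, 41.2% of those tested against 7.69% of all genes: COL1A1, COL1A2, COL3A1, COL5A2, COL5A3, COL24A1, COL4A1, COL4A2, COL9A3, COL6A1, COL6A2, COL6A3, COL8A2 and COL18A1. Without C2-Mes replicate 1 these 14 were kept, and without replicate 2 only COL8A2 was lost. COL2A1, COL16A1 and COL22A1 fell in all 3 transitions, 8.82% of members against 7.03% of all genes, and without C2-Mes replicate 2 COL16A1 no longer passed. COL5A1, COL4A6 and COL12A1 were called higher in 1 transition and lower in another, which also held for 5.75% of all genes. COL27A1, a cartilage fibrillar collagen at 25.8 to 51.3 CPM in every library, and COL25A1 were called in none of the transitions.

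**Figure D2:**
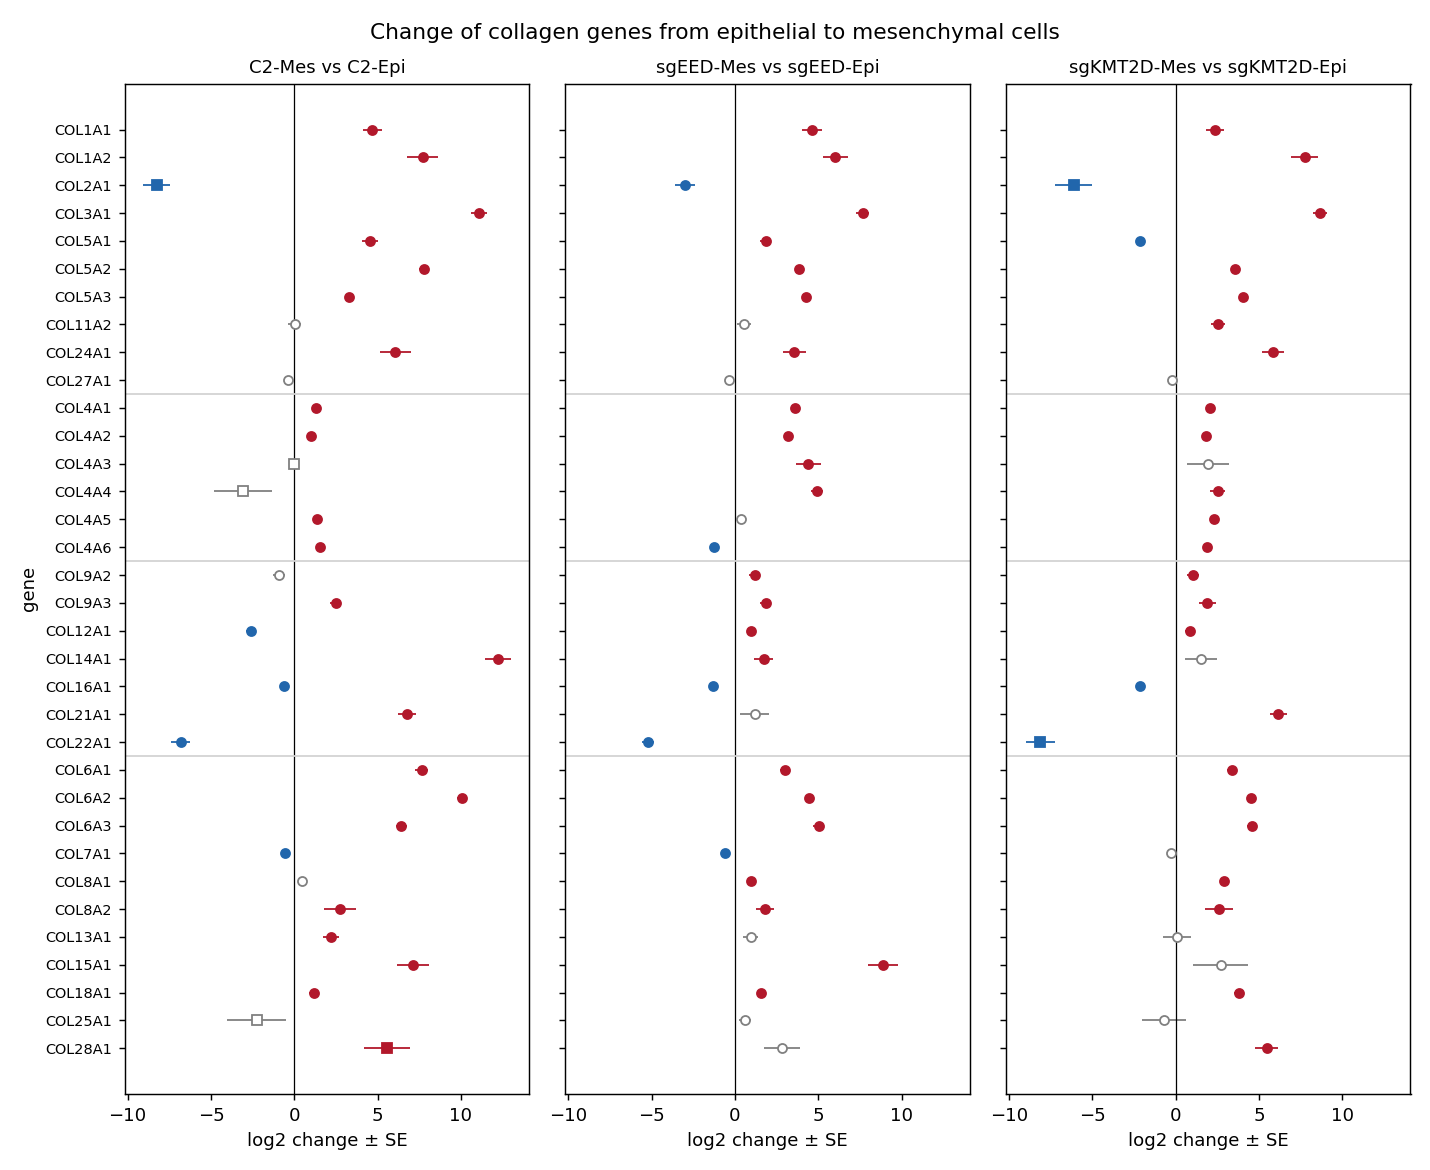
Log2 change from the epithelial to the mesenchymal group (x axis, with SE from the edgeR test) for the 34 tested collagen genes (y axis, ordered by class from fibrillar at the top to other at the bottom), 1 panel per lineage. Red marks higher and blue lower at an adjusted p under 0.05, open symbols did not pass, and squares mark genes at 0 in both libraries of a group; 14 genes are red in every panel.

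**Figure D3:**
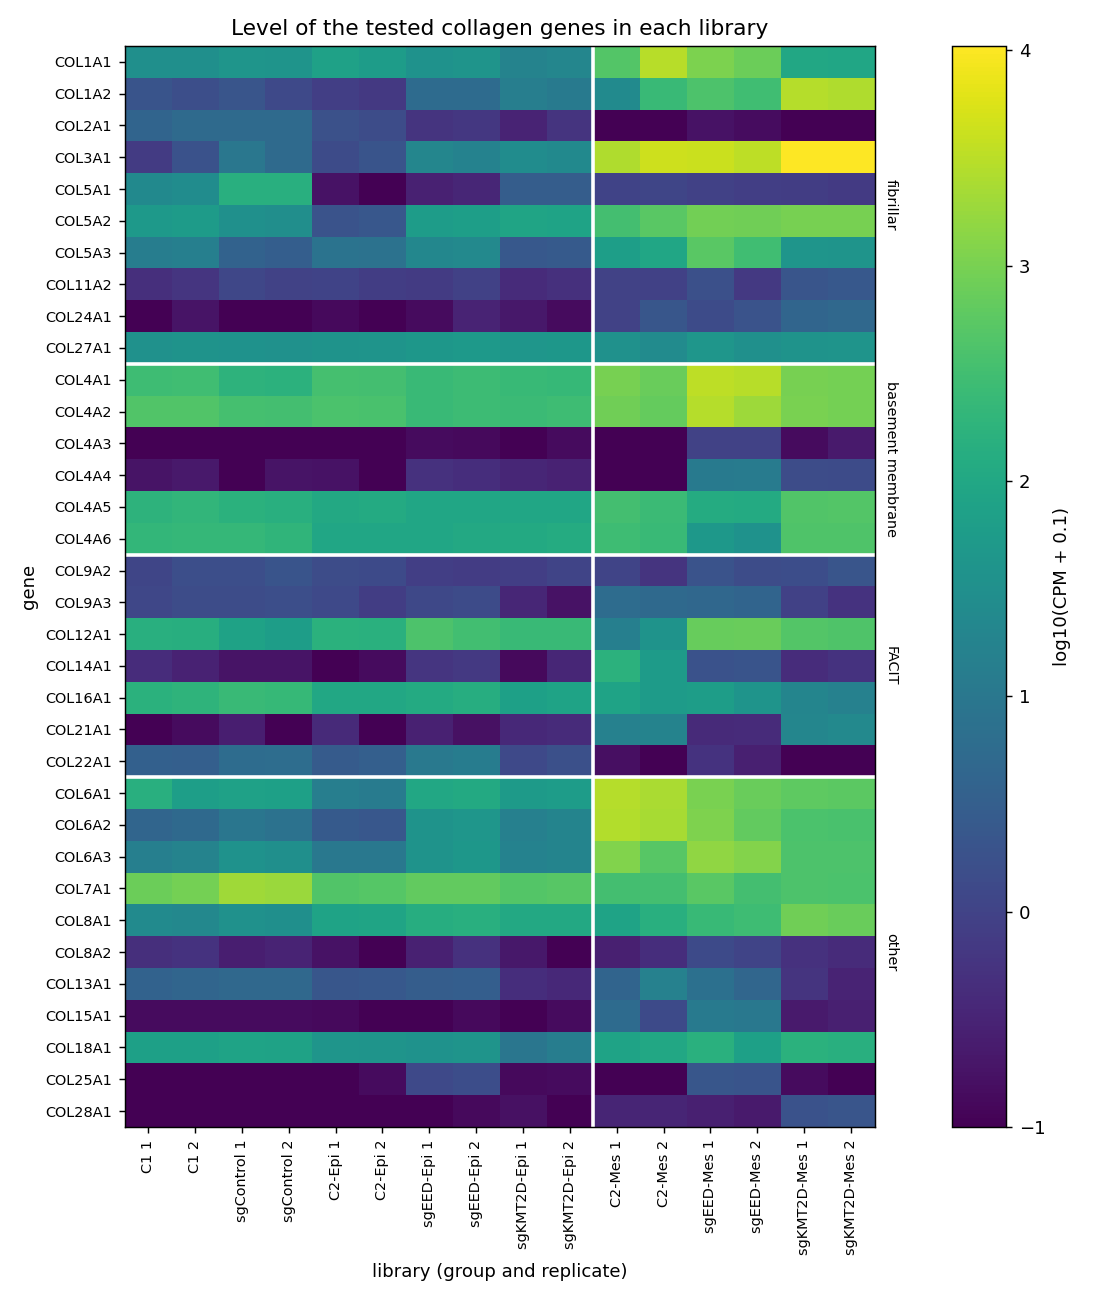
Level of each tested collagen gene (rows, by class) in each library (columns) as log10 of CPM plus 0.1. Of the 10 tested fibrillar genes, 7 rose in each transition across the white line (21%, 19.2% and 26.8% of all genes in C2, EED and KMT2D). In the same order 1, 1 and 2 fell (18.6%, 17.3% and 24%). The 7 were not the same throughout: COL5A1 rose in C2 and EED but fell in KMT2D, where COL11A2 rose. COL6A1, COL6A2 and COL6A3 rose in every transition, and COL7A1 is bright in every library.

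Among the fibrillar collagens, COL3A1 had the highest level per kilobase in every mesenchymal library and rose in every transition. It was at 1.30 and 1.88 CPM in C2-Epi and at 2696 and 4253 CPM in C2-Mes, a log2 change of 11.09 ± 0.47 (SE, adjusted p = 7.5e-10). In the EED knockout it was at 20.0 and 16.6 CPM in the epithelial and 4094 and 3276 CPM in the mesenchymal libraries, a log2 change of 7.65 ± 0.40. In the KMT2D knockout it was at 27.8 and 24.4 against 10357 and 10473 CPM, a log2 change of 8.64 ± 0.42. Epithelial and mesenchymal libraries did not overlap in any lineage. The knockout transitions were smaller than that of C2 (interaction log2 -3.44 ± 0.48 for EED and -2.45 ± 0.48 for KMT2D), and the epithelial knockout groups already stood above C2-Epi. COL3A1 level in sgKMT2D-Mes exceeded that in C2-Mes (log2 1.58 ± 0.31) and in sgEED-Mes (log2 1.499 ± 0.31).

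Type I collagen, the main fibril former of connective tissue, is normally assembled from COL1A1 and COL1A2 chains together, with COL1A1 in excess. COL1A1 was at 74.2 and 59.8 CPM in C2-Epi and at 484 and 2964 CPM in C2-Mes (log2 4.69 ± 0.59, adjusted p = 2.5e-05). It was at 36.6 and 40.1 against 1078 and 794 CPM in the EED lineage (log2 4.61 ± 0.59), and at 17.8 and 20.3 against 102 and 93.3 CPM in the KMT2D lineage (log2 2.36 ± 0.54). COL1A1 was thus above the epithelial range in every mesenchymal group, and lowest of these in sgKMT2D-Mes.

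COL1A2 showed another order of groups. It was at 0.759 and 0.576 CPM in C2-Epi and at 25.7 and 254 CPM in C2-Mes (log2 7.70 ± 0.90, adjusted p = 1.3e-05). In sgEED-Epi it was at 5.56 and 5.47 CPM and in sgEED-Mes at 421 and 301 CPM (log2 6.03 ± 0.78). In sgKMT2D-Epi it was at 14.1 and 11.9 CPM, and in sgKMT2D-Mes at 2899.9 and 2659.7 CPM (log2 7.74 ± 0.83), above every other library. Per kilobase, COL1A1 exceeded COL1A2 by 21.4-fold and 13.3-fold in the C2-Mes libraries and by 2.91-fold and 2.996-fold in sgEED-Mes, whereas COL1A2 exceeded COL1A1 by 25.1-fold in replicate 2 and about as much in replicate 1 in sgKMT2D-Mes. In the epithelial groups COL1A1 was the higher chain in every library, by 1.43-fold to 118-fold.

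The levels of type I chains differed between mesenchymal groups, but C2-Mes was internally uneven. COL1A1 was lower in sgKMT2D-Mes than in C2-Mes (log2 -4.14 ± 0.57, adjusted p = 9.2e-05) and than in sgEED-Mes (log2 -3.26 ± 0.55, adjusted p = 0.00055). COL1A2 was higher in sgKMT2D-Mes than in C2-Mes (log2 4.31 ± 0.70, adjusted p = 0.00035) and than in sgEED-Mes (log2 2.94 ± 0.66, adjusted p = 0.0040). When the comparison with C2-Mes was fitted on those 4 libraries alone, neither passed (COL1A1 adjusted p = 0.055, COL1A2 adjusted p = 0.079). Without C2-Mes replicate 1 or 2 these values were log2 -4.91 and -2.37 for COL1A1 and 3.46 and 6.70 for COL1A2. Against sgEED-Mes, COL1A2 did not pass without sgEED-Mes replicate 2 (adjusted p = 0.056).

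The C2-Mes libraries differed 6.12-fold in COL1A1 and 9.89-fold in COL1A2, ranks 33 and 14 among 10701 genes by difference between replicates. The values therefore moved with the library kept: the COL1A1 transition of C2 was log2 5.36 without replicate 1 and 2.81 without replicate 2, and that of COL1A2 was 8.45 and 5.21. COL1A1 did not differ at the threshold between sgEED-Mes and C2-Mes (log2 -0.88 ± 0.51, adjusted p = 0.18), but was lower without C2-Mes replicate 1 (log2 -1.65) and higher without replicate 2 (log2 0.89). COL1A2 in the same comparison was at log2 1.37 ± 0.62 (adjusted p = 0.097), and passed without replicate 2 (log2 3.76, adjusted p = 1.4e-08). The interaction of KMT2D with C2 for COL1A1 (log2 -2.33 ± 0.73, adjusted p = 0.034) was -0.52 without C2-Mes replicate 2 and did not pass there (adjusted p = 0.082), without any library of C2-Epi or of the KMT2D lineage (0.071 to 0.11) or in those 8 libraries alone (0.14).

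Type V collagen nucleates fibrils and usually pairs a COL5A1 chain with COL5A2. COL5A2, which neighbours COL3A1 on chromosome 2, was at 1.84 and 2.19 CPM in C2-Epi and at 325 and 555 CPM in C2-Mes (log2 7.77 ± 0.27, adjusted p = 8.7e-11). It was at 58.7 and 64.2 against 901 and 856 CPM in the EED lineage (log2 3.84 ± 0.22) and at 83.6 and 83.4 against 983 and 969.9 CPM in the KMT2D lineage (log2 3.55 ± 0.21). C2-Epi had far less COL5A2 than the other epithelial groups, whose libraries lay between 30.8 and 83.6 CPM. The C2 transition exceeded both knockout transitions (interaction log2 -3.93 ± 0.30 for EED and -4.22 ± 0.30 for KMT2D).

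COL5A1 did not follow its partner. It was at 24.5 and 28.1 CPM in C1 and at 147 and 144 CPM in sgControl, but at 2.95 CPM or less in every other library. It had 0.0723 and 0 CPM in C2-Epi, 0.190 and 0.246 in sgEED-Epi and 2.91 and 2.95 in sgKMT2D-Epi. The mesenchymal groups were close to each other, with 0.935 and 1.02 CPM in C2-Mes, 0.834 and 0.748 in sgEED-Mes and 0.711 and 0.613 in sgKMT2D-Mes. COL5A1 therefore rose from sgEED-Epi to sgEED-Mes (log2 1.83 ± 0.35, adjusted p = 0.00087) and fell from sgKMT2D-Epi to sgKMT2D-Mes (log2 -2.13 ± 0.25, adjusted p = 7.7e-06). The rise in C2-Mes was called (adjusted p = 3.6e-06), but C2-Epi holds too few counts for a fold. COL5A2 exceeded COL5A1 per kilobase by 521-fold to 2376-fold in the mesenchymal libraries, by 3.04-fold and 3.06-fold in C1, and was the lower chain in sgControl, where COL5A1 exceeded it by 2.90-fold and 3.12-fold.

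COL5A3, a further type V chain, rose in each transition. It was at 8.24 and 7.72 CPM in C2-Epi and 64.1 and 92.8 CPM in C2-Mes (log2 3.30 ± 0.25), at 20.8 and 23.0 against 544 and 306 CPM in the EED lineage (log2 4.28 ± 0.26), and at 2.27 and 2.51 against 40.6 and 39.4 CPM in the KMT2D lineage (log2 4.06 ± 0.27). Its level was highest in sgEED-Mes, above C2-Mes (log2 2.44 ± 0.24, adjusted p = 1.8e-06) and above sgKMT2D-Mes, which was lower by log2 -3.41 ± 0.25.

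COL2A1, the chain of cartilage type II collagen, ran the other way. It was at 4.07 to 5.37 CPM in the C1 and sgControl libraries and at 1.66 and 1.35 CPM in C2-Epi, with no count in C2-Mes, at least 11.1-fold lower by the floor of 3 counts. In the EED lineage it was at 0.457 and 0.562 against 0.0726 and 0.0440 CPM (log2 -3.00 ± 0.60, adjusted p = 0.0020), and sgKMT2D-Mes again had no count, at least 2.69-fold lower than sgKMT2D-Epi. COL24A1, a fibrillar collagen of bone, was at 0.211 CPM or less in the epithelial libraries and at 0.876 to 4.90 CPM in the mesenchymal ones. COL11A2, known from cartilage, stayed at 0.319 to 2.28 CPM and rose in the KMT2D transition (log2 2.55 ± 0.42, adjusted p = 0.00020). Chondrocyte markers summed to 31.0 to 129.5 CPM over all libraries, mostly SOX9, and their part in these values was not tested.

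**Figure D4:**
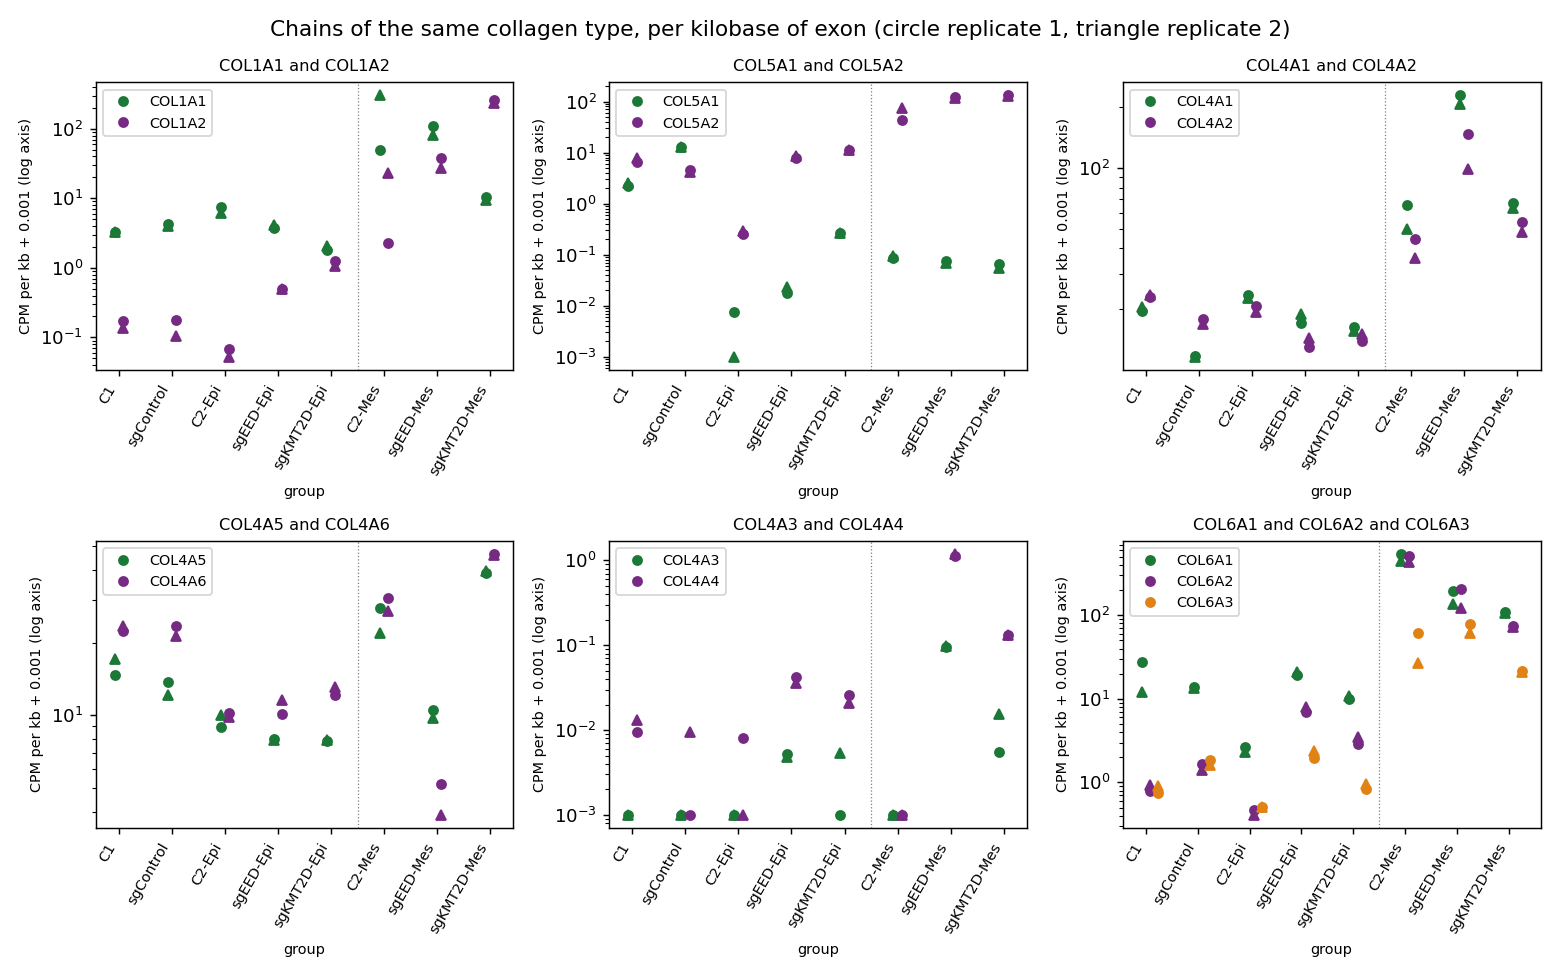
CPM per kilobase of exon plus 0.001 (log y axis) of chains of the same collagen type in the 8 groups (x axis), with circles for replicate 1 and triangles for replicate 2. COL1A1 lies above COL1A2 in every group but sgKMT2D-Mes, and COL5A1 lies above COL5A2 in sgControl only.

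The basement membrane collagens COL4A1 and COL4A2, which form the type IV network of nearly all basement membranes, rose in every transition and were highest in sgEED-Mes. COL4A1 was at 347 and 335 CPM in C2-Epi and 965 and 736 CPM in C2-Mes (log2 1.32 ± 0.14, adjusted p = 3.4e-06). It was at 252 and 278 against 3373 and 3068 CPM in the EED lineage (log2 3.60 ± 0.15, adjusted p = 6.2e-10), and at 241 and 229 against 990.4 and 939.6 CPM in the KMT2D lineage (log2 2.04 ± 0.14). The EED transition exceeded that of C2 by log2 2.29 ± 0.19, and the KMT2D transition lay below that of EED (log2 -1.57 ± 0.19).

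COL4A2, on the other side of the shared promoter region, moved alike. It was at 398 and 372 against 855 and 690.4 CPM in C2 (log2 1.00 ± 0.17), at 249.98 and 277 against 2844 and 1909 CPM in the EED lineage (log2 3.17 ± 0.19) and at 269.98 and 291 against 1038 and 932 CPM in the KMT2D lineage (log2 1.81 ± 0.18). In sgEED-Mes, COL4A1 exceeded its level in C2-Mes by log2 1.92 ± 0.14 and COL4A2 by 1.62 ± 0.17. In sgKMT2D-Mes neither differed from C2-Mes at the threshold (log2 0.18 ± 0.14, adjusted p = 0.33, and 0.35 ± 0.17, adjusted p = 0.13). Per kilobase, COL4A1 to COL4A2 stood at 0.655 to 0.874 in the C1 and sgControl libraries and at 1.03 to 2.10 in all others.

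COL4A5 and COL4A6, whose chains form a type IV network of some epithelial and smooth muscle basement membranes, parted in the EED knockout. COL4A5 was at 106 and 119 against 331 and 259 CPM in C2 (log2 1.39 ± 0.14, adjusted p = 3.3e-06) and at 93.3 and 93.7 against 459 and 471 CPM in the KMT2D lineage (log2 2.31 ± 0.15). In the EED lineage it was at 95.1 and 93.4 against 125 and 116 CPM, without passing (log2 0.35 ± 0.14, adjusted p = 0.070). The mesenchymal libraries were thus above the epithelial ones in all 3 lineages, by less in EED than in C2 (interaction log2 -1.04 ± 0.20, adjusted p = 0.0021).

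COL4A6 was at 95.3 and 91.7 against 284 and 251 CPM in C2 (log2 1.52 ± 0.15) and at 112 and 121 against 433 and 426 CPM in the KMT2D lineage (log2 1.88 ± 0.15). In the EED lineage it fell from 93.8 and 107 to 48.1 and 35.9 CPM (log2 -1.26 ± 0.15, adjusted p = 1.6e-05), the opposite direction to its neighbour and to both other lineages. The interaction was log2 -2.78 ± 0.21 for EED against C2 and 3.14 ± 0.21 for KMT2D against EED. Per kilobase, COL4A5 to COL4A6 stood at 2.03 and 2.52 in the sgEED-Mes libraries and at 0.575 to 1.02 in every other library. The CCAAT boxes shown above lie in the region between these genes.

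COL4A3 and COL4A4, chains of the kidney glomerular network, were detected mainly in sgEED-Mes. COL4A3 had 0.871 and 0.880 CPM there, at most 0.0398 CPM in any epithelial library, no count in C2-Mes, and 0.0418 and 0.131 CPM in sgKMT2D-Mes. COL4A4 had 11.4 and 12.1 CPM in sgEED-Mes against 0.419 and 0.351 in sgEED-Epi (log2 4.92 ± 0.37, adjusted p = 3.6e-07) and 1.34 and 1.31 in sgKMT2D-Mes. With no count in C2-Mes, its level in sgEED-Mes was at least 86.8-fold higher, and that in sgKMT2D-Mes at least 9.78-fold higher. COL4A4 also rose from sgKMT2D-Epi (0.248 and 0.199 CPM) to sgKMT2D-Mes by log2 2.53 ± 0.45, less than in the EED lineage (interaction log2 -2.38 ± 0.65, adjusted p = 0.021). That interaction did not pass (adjusted p between 0.054 and 0.14) without sgEED-Epi replicate 2, sgEED-Mes replicate 2 or any library of the KMT2D lineage. Over the whole class, 4 of 6 genes rose and none fell in C2 (21% and 18.6% of all genes), 4 rose and 1 fell in EED (19.2% and 17.3%), and 5 rose and none fell in KMT2D (26.8% and 24%).

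Of 7 tested FACIT collagens, 3 rose and 3 fell in C2 (21% and 18.6% of all genes), 4 rose and 2 fell in EED (19.2% and 17.3%), and 4 rose and 2 fell in KMT2D (26.8% and 24%). COL12A1, which lies along type I fibrils and is known from tissues under tension, fell in the C2 transition from 159.8 and 157 CPM to 14.5 and 37.1 CPM (log2 -2.60 ± 0.31, adjusted p = 1.5e-05). In the EED lineage it was at 415 and 318 against 727 and 733 CPM (log2 0.99 ± 0.29, adjusted p = 0.017), and in the KMT2D lineage at 256 and 247 against 483 and 435 CPM (log2 0.87 ± 0.29, adjusted p = 0.024). The differences from C2 were log2 3.60 ± 0.43 and 3.48 ± 0.42, and COL12A1 was higher in sgEED-Mes than in C2-Mes by log2 4.81 ± 0.34. Leaving out single libraries raised the adjusted p of both knockout rises above the threshold: EED to 0.14 without sgEED-Epi replicate 2, 0.065 without sgEED-Mes replicate 1 and 0.066 without sgEED-Mes replicate 2, and KMT2D to between 0.069 and 0.13 without any of its 4 libraries and to 0.052 with a correction for GC content and length. Without C2-Mes replicate 2 the C2 change was log2 -3.49 and the excess of sgEED-Mes over C2-Mes 5.59.

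COL14A1, another collagen of the fibril surface, was highest in C2-Mes. It had 168 and 58.0 CPM there and 1.94 CPM or less in every other library. It rose in C2 from 0 and 0.0384 CPM (adjusted p = 2.6e-08), counts too few for a fold, and in the EED lineage from 0.495 and 0.597 to 1.71 and 1.94 CPM (log2 1.72 ± 0.56, adjusted p = 0.028, but 0.094 to 0.14 without any single library of the 4). Its level was lower in sgEED-Mes than in C2-Mes by log2 -5.95 ± 0.47 (-4.99 without C2-Mes replicate 1 and -6.59 without replicate 2) and in sgKMT2D-Mes by -8.18 ± 0.56 (-7.21 and -8.81).

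COL21A1, a small FACIT collagen, had 15.95 and 17.3 CPM in C2-Mes and 20.5 and 23.2 CPM in sgKMT2D-Mes but 0.290 and 0.308 CPM in sgEED-Mes, beside at most 0.319 CPM in the epithelial libraries. The log2 changes were 6.76 ± 0.56 in C2, 6.16 ± 0.51 in KMT2D and 1.19 ± 0.86 in EED, where it did not pass (adjusted p = 0.31). With so few epithelial counts the C2 value lay between 5.75 and 11.69 without C2-Epi replicate 2 and replicate 1. The EED change differed from that of C2 (interaction log2 -5.57 ± 1.29, adjusted p = 0.0069) and from that of KMT2D (4.97 ± 1.23, adjusted p = 0.011), although neither passed without sgEED-Epi replicate 1 (adjusted p = 0.16 and 0.19).

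COL16A1, which associates with fibrils and is made by several epithelia, fell in all lineages. It was at 102 and 104 against 80.0 and 57.4 CPM in C2 (log2 -0.59 ± 0.20, adjusted p = 0.034), at 117 and 132 against 60.8 and 39.1 CPM in EED (log2 -1.31 ± 0.21) and at 72.2 and 82.8 against 19.0 and 15.8 CPM in KMT2D (log2 -2.15 ± 0.22). The C2 call was lost without C2-Mes replicate 2 (log2 -0.41, adjusted p = 0.13), without either C2-Epi library (adjusted p = 0.072 and 0.094) and in a fit of the 4 libraries alone (0.15).

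COL22A1, known from the junction of muscle and tendon, was at 2.64 and 3.19 CPM in C2-Epi and at 0.0584 and 0 CPM in C2-Mes, 10.8 and 12.7 against 0.435 and 0.176 CPM in the EED lineage (log2 -5.20 ± 0.36, or -6.06 without sgEED-Mes replicate 1), and 1.21 and 1.55 CPM against no count in the KMT2D lineage, at least 10.7-fold lower. Of the type IX chains, which coat cartilage fibrils, COL9A3 rose in all transitions and reached 5.78 and 5.18 CPM in C2-Mes, 4.72 and 4.01 in sgEED-Mes and 0.837 and 0.438 in sgKMT2D-Mes. The KMT2D call of COL9A3 was lost without sgKMT2D-Epi replicate 2 (adjusted p = 0.088), without sgKMT2D-Mes replicate 1 (0.13) and with the GC and length correction (0.057). COL9A2 stayed between 0.479 and 2.01 CPM and rose in the EED and KMT2D transitions (adjusted p = 0.019 and 0.025), but the EED call was lost without either sgEED-Epi library or sgEED-Mes replicate 1 (0.070 to 0.17), and the KMT2D call without either sgKMT2D-Epi library or sgKMT2D-Mes replicate 2 (0.075 to 0.23) and with the correction (0.17).

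Type VI collagen, whose beaded filaments need COL6A1, COL6A2 and a further chain such as COL6A3, rose as a whole. COL6A1 was at 14.1 and 12.2 CPM in C2-Epi and 2918 and 2371 CPM in C2-Mes (log2 7.65 ± 0.38, adjusted p = 2.4e-09). It was at 104 and 112 against 1029 and 736 CPM in the EED lineage (log2 3.03 ± 0.30) and at 53.4 and 58.5 against 586 and 568 CPM in the KMT2D lineage (log2 3.37 ± 0.31). C2-Mes stood above both other mesenchymal groups, with sgEED-Mes lower by log2 -1.58 ± 0.29 and sgKMT2D-Mes by -2.20 ± 0.29.

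COL6A2, on chromosome 21 like COL6A1, was at 2.49 and 2.19 against 2727 and 2321 CPM in C2 (log2 10.07 ± 0.31, adjusted p = 4.4e-11), at 37.2 and 42.7 against 1103 and 652 CPM in EED (log2 4.46 ± 0.24), and at 15.5 and 18.7 against 402 and 386 CPM in KMT2D (log2 4.53 ± 0.24). The C2 transitions of COL6A1 and COL6A2 exceeded the knockout ones, with interactions of log2 -4.62 ± 0.42 and -5.61 ± 0.33 for EED and -4.28 ± 0.42 and -5.54 ± 0.33 for KMT2D. Per kilobase, COL6A1 exceeded COL6A2 by 2.64-fold to 35.1-fold in the epithelial libraries, whereas the ratio was 0.940 to 1.48 in the mesenchymal ones.

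COL6A3 was at 10.0 and 9.99 against 1196 and 529 CPM in C2 (log2 6.43 ± 0.35), at 38.2 and 46.3 against 1531 and 1221 CPM in EED (log2 5.03 ± 0.32) and at 16.4 and 18.5 against 422 and 410.1 CPM in KMT2D (log2 4.57 ± 0.32). The C2 change was log2 5.61 without C2-Mes replicate 1. Its level in sgEED-Mes against C2-Mes did not pass (log2 0.67 ± 0.27, adjusted p = 0.061), and without C2-Mes replicate 1 it was higher (log2 1.39, adjusted p = 6.8e-06). It was lower in sgKMT2D-Mes than in C2-Mes (log2 -1.05 ± 0.27, adjusted p = 0.0091), but not without C2-Mes replicate 1 (log2 -0.34, adjusted p = 0.12), without either sgKMT2D-Mes library (adjusted p = 0.058 and 0.067) or in the 4 libraries alone (0.17).

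COL7A1, which anchors epithelia to the tissue beneath, changed little in the transitions. It was at 460.1 and 495 against 325 and 329 CPM in C2 (log2 -0.55 ± 0.19, adjusted p = 0.031), at 640.5 and 665 against 536 and 328 CPM in EED (log2 -0.59 ± 0.19, adjusted p = 0.022) and at 468 and 519 against 407 and 400.4 CPM in KMT2D, which did not pass (log2 -0.29 ± 0.19, adjusted p = 0.21). The C2 call was lost without C2-Epi replicate 2 (adjusted p = 0.095) and in the 4 libraries alone (0.070), and the EED call without sgEED-Mes replicate 2 (log2 -0.32, adjusted p = 0.14), without either sgEED-Epi library (0.058 and 0.063) and in the 4 libraries alone (0.081). Mesenchymal libraries thus held 325 to 536 CPM of COL7A1.

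COL8A1, a short-chain collagen known from endothelial and corneal membranes, rose most in the KMT2D lineage. It was at 82.5 and 86.2 against 81.9 and 148 CPM in C2, without passing (log2 0.45 ± 0.21, adjusted p = 0.11), at 132 and 144 against 238 and 289 CPM in EED (log2 0.93 ± 0.21, adjusted p = 0.0034) and at 106 and 106 against 864 and 749.5 CPM in KMT2D (log2 2.93 ± 0.23, adjusted p = 1.7e-07). The KMT2D transition exceeded those of C2 (interaction log2 2.48 ± 0.30) and EED (1.99 ± 0.30). Endothelial markers summed to 18.6 and 30.7 CPM in C2-Mes, mostly PECAM1, and to 1.41 to 4.60 CPM in the other libraries, with CDH5 at 0 in all 3 mesenchymal groups. PECAM1 rose in the KMT2D transition too, from 0.709 and 0.876 to 4.31 and 4.03 CPM (log2 2.39 ± 0.28), whereas 2 of the 4 tested endothelial markers fell there. KDR went from 0.922 and 0.837 to 0.0418 and 0 CPM, and TEK from 0.461 and 0.598 CPM to no count. The part of these markers in the COL8A1 result was not tested.

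COL18A1, the source of endostatin in basement membranes, rose in all transitions: from 42.1 and 40.1 to 83.3 and 103 CPM in C2 (log2 1.18 ± 0.28), from 35.6 and 39.7 to 155 and 69.996 CPM in EED (log2 1.58 ± 0.28, or 0.85 without sgEED-Mes replicate 1) and from 9.07 and 13.1 to 158 and 148 CPM in KMT2D (log2 3.79 ± 0.31). The KMT2D change was larger than those of C2 and EED (interaction log2 2.61 ± 0.40 and 2.21 ± 0.40), and sgKMT2D-Epi had the least COL18A1 of any group. Its relative COL15A1 was at 0.0428 CPM or less in the epithelial libraries and reached 5.67 and 1.25 CPM in C2-Mes and 11.8 and 10.2 CPM in sgEED-Mes, but 0.126 and 0.175 CPM in sgKMT2D-Mes. COL13A1, a transmembrane collagen of cell contacts, rose in C2 alone by the test, from 2.06 and 2.34 to 4.03 and 16.1 CPM (log2 2.22 ± 0.47, adjusted p = 0.0019). The value was 0.83 without C2-Mes replicate 2, and it did not pass in a fit of those 4 libraries alone (adjusted p = 0.096). Its interactions with the other lineages did not pass (adjusted p = 0.20 and 0.14).

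COL25A1, a transmembrane collagen known from neurons, marked the EED knockout in both states. It had 1.18 and 1.44 CPM in sgEED-Epi and 2.10 and 1.94 CPM in sgEED-Mes, and at most 0.0418 CPM in any library of the other 6 groups. It was at least 10.3-fold higher in sgEED-Epi than in sgControl, which had no count, and sgEED-Mes exceeded C2-Mes at least 14.9-fold. COL28A1, a collagen of peripheral nerve, had 1.76 and 1.97 CPM in sgKMT2D-Mes and 0.234 CPM or less elsewhere, and COL8A2, a corneal relative of COL8A1, stayed at 1.23 CPM or less. COL8A2 calls rested on few counts: the C2 call was lost without C2-Epi replicate 2 (adjusted p = 0.21), without C2-Mes replicate 2 (0.25) and with DESeq2 (0.052), the EED call without sgEED-Epi replicate 1 (0.15) or sgEED-Mes replicate 1 (0.11), and the KMT2D call without sgKMT2D-Epi replicate 2 (0.15) or sgKMT2D-Mes replicate 1 (0.12).

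Set against each other, the mesenchymal groups differed in 19 to 24 of 34 tested collagens. In sgEED-Mes against C2-Mes, 13 were higher and 6 lower, 55.9% of the members against 41.9% of all genes (21.7% higher and 20.2% lower). In sgKMT2D-Mes against C2-Mes, 12 were higher and 10 lower, where 33.4% of all genes were called (16.2% and 17.2%), but 5 and 6 when those 4 libraries were fitted alone, where calls over all genes were also fewer (2112 of 15851 against 6103 of 18285). In sgKMT2D-Mes against sgEED-Mes, 8 were higher and 16 lower, where 31.1% of all genes were called (13.4% and 17.7%). The transitions themselves differed for 17 members between EED and C2 (log2 change higher in EED for 7 and lower for 10, with 21.1% of all genes called, 10.2% higher and 10.9% lower), for 18 between KMT2D and C2 (9 each way, against 24.1% of all genes, 12.3% and 11.8% by direction) and for 11 between KMT2D and EED (higher in KMT2D for 6 and lower for 5, against 20.1% of all genes, 10.9% and 9.24%). Those higher in EED than in C2 were 4 in those 8 libraries alone, where 2130 of 17525 genes were called, and were also fewer without C2-Epi replicate 1. Those lower in KMT2D than in EED were fewer without sgEED-Epi replicate 2 or any library of the KMT2D lineage. In each of these fits calls over all genes were fewer too. Comparisons that use the same group share its libraries and are not independent of each other.

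The epithelial groups, although all low in fibrillar collagen, were not alike. C2-Epi had 1 collagen higher and 12 lower than C1, 38.2% of the tested members against 30.7% of all genes (12.4% higher and 18.3% lower). The lower ones included COL5A2 (log2 -4.72 ± 0.24), COL6A1 (-3.02 ± 0.31), COL4A6 (-1.18 ± 0.15) and COL7A1 (-0.84 ± 0.19). Leaving out any of the 4 libraries left fewer than 12 lower, and calls over all genes were also fewer. With a correction for GC content and annotated exon length the split was 6 higher and 7 lower, and the COL7A1 difference no longer passed (log2 -0.13). Nor did the COL7A1 difference pass without C1 replicate 2 (log2 -0.60) or C2-Epi replicate 1 (log2 -0.70). The tested collagens are GC-rich, with a median exonic GC content of 57.11% against 48.09% over all tested genes, and long, with a median of 8.70 kb of exon against 4.24 kb. COL6A1 levels in C1 were themselves uneven, at 149 and 64.8 CPM, and its difference from C2-Epi was log2 -2.22 without C1 replicate 1 and -2.34 with the correction, and did not pass in those 4 libraries alone (adjusted p = 0.054).

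The control-guide cells and C1 also differed in single collagens, though not in a share far from that of all genes. Against C1, sgControl had 6 collagens higher and 4 lower, 29.4% of the tested members, near the 27.1% of all genes called (13.3% and 13.8%). With those 4 libraries alone, where 7281 of 15702 genes were called, 10 were higher. Leaving out each of them in turn left fewer than 6 higher, and calls over all genes were also fewer. COL5A1 was higher by log2 2.47 ± 0.18 (adjusted p = 1.5e-06), COL7A1 rose from 769 and 944 to 2006 and 1802 CPM (log2 1.15 ± 0.19, adjusted p = 0.00071) and COL4A1 was lower, at 173 and 171 against 289 and 302 CPM (log2 -0.78 ± 0.14, adjusted p = 0.0012). The epithelial knockouts are therefore set against both references.

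sgEED-Epi had 12 collagens higher and 8 lower than sgControl, 58.8% of the tested members against 48.8% of all genes (24.3% higher and 24.6% lower). It had 8 higher and 6 lower than C1, 41.2% of the members against 25.2% of all genes (12.5% and 12.6%). The split against C1 was 10 and 5 with the GC and length correction. COL12A1 was higher against both, by log2 2.37 ± 0.31 over sgControl and 1.36 ± 0.30 over C1, as were COL6A2 (2.26 ± 0.22 and 3.11 ± 0.23), COL8A1 (2.05 ± 0.22 and 2.52 ± 0.23) and COL3A1 (1.31 ± 0.33 and 3.94 ± 0.40). COL5A1 was lower against both, by log2 -9.34 ± 0.27 and -6.87 ± 0.27, and so were COL4A5 (-0.71 ± 0.14 and -0.998 ± 0.14) and COL4A6 (-1.04 ± 0.15 and -1.08 ± 0.15). The COL3A1 difference from sgControl did not pass without sgControl replicate 2 (adjusted p = 0.056), and that from C1 was 4.86 without C1 replicate 2. With the correction the COL6A2 difference from sgControl was 2.89.

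sgKMT2D-Epi had 8 collagens higher and 13 lower than sgControl, 61.8% of the tested members against 56% of all genes (25.3% higher and 30.7% lower). Against C1 it had 7 higher and 14 lower, 61.8% of the members against 38.8% of all genes (16.4% and 22.4%). Leaving out each of the 4 libraries of the C1 comparison in turn left fewer than 7 higher, and calls over all genes were also fewer. With the GC and length correction the splits were 10 and 11 and 6 and 8. COL3A1 (log2 1.82 ± 0.33 over sgControl and 4.46 ± 0.40 over C1), COL1A2 (3.05 ± 0.78 and 2.92 ± 0.77), COL8A1 (1.67 ± 0.22 and 2.15 ± 0.22) and COL6A2 (1.04 ± 0.22 and 1.88 ± 0.23) were higher against both. COL1A2 did not pass with the correction against sgControl (adjusted p = 0.056) or without C1 replicate 2 against C1 (0.066). COL5A1 (-5.63 ± 0.21 and -3.16 ± 0.19), COL18A1 (-2.84 ± 0.30 and -2.68 ± 0.30) and COL16A1 (-1.63 ± 0.21 and -1.12 ± 0.21) were lower against both, although COL16A1 against C1 did not pass with the correction (log2 -0.25, adjusted p = 0.30). The correction also moved COL5A1 to -4.88 and -2.41, COL18A1 to -1.72 and -1.62 and COL6A2 to 2.21 and 2.90, and COL16A1 to -0.72 against sgControl. Without C1 replicate 2 the COL3A1 difference from C1 was 5.41. The epithelial knockout groups thus held more COL3A1 transcript than either wild-type reference from C1, at 16.6 to 27.8 CPM against 0.636 to 9.53 CPM, while every mesenchymal library held 2696 CPM or more.

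**Figure D5:**
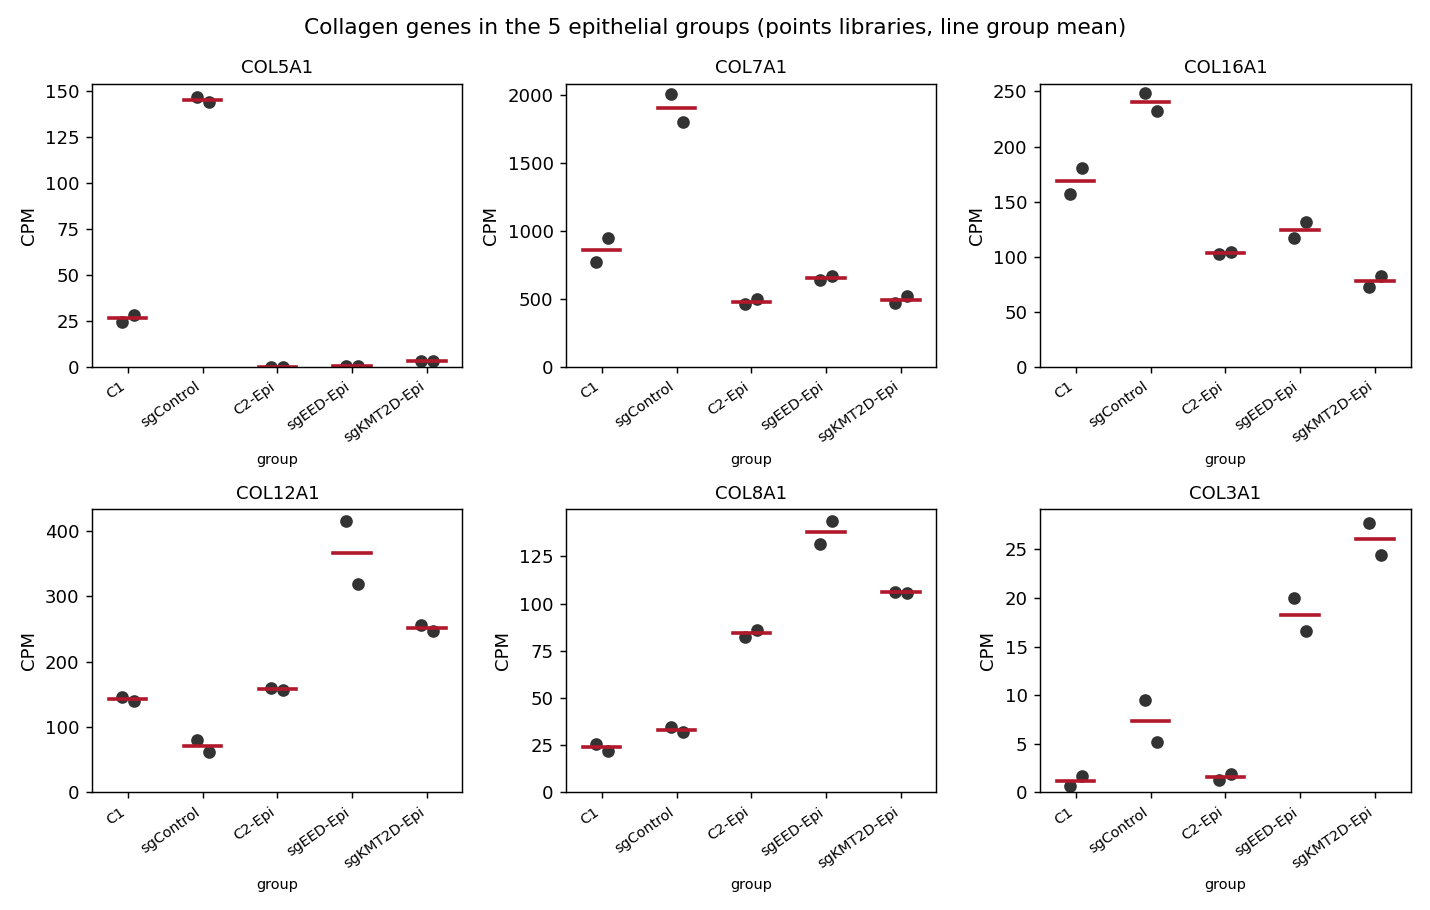
CPM (y axis, from 0) of 6 collagen genes in the 5 epithelial groups (x axis), with points for libraries and a red line for the mean of 2 libraries. COL5A1 and COL7A1 peak in sgControl, and COL3A1 and COL8A1 are highest in the knockout groups.

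Of the genes that make collagen, 31 of 33 were tested, and more of them rose than fell in each transition. The list holds prolyl and lysyl hydroxylases, chaperones, export, propeptide-cleaving and cross-linking enzymes. In the C2 transition 20 rose and 4 fell (39.6% of all genes called), in EED 27 rose and 1 fell (36.5%), and in KMT2D 21 rose and 2 fell (50.8%), with median log2 changes of 1.12, 1.29 and 0.84. P4HB, a subunit of the prolyl hydroxylase that stabilises the helix, was at 425 and 412 against 802 and 1191 CPM in C2 (log2 1.25 ± 0.17), 502 and 583 against 1649.9 and 1437 CPM in EED (1.51 ± 0.17), and 580.3 and 618 against 1324 and 1231 CPM in KMT2D (1.09 ± 0.17).

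PLOD1, a lysyl hydroxylase, rose by log2 1.85 ± 0.16, 1.77 ± 0.16 and 1.57 ± 0.16 in C2, EED and KMT2D, and CRTAP, of the prolyl 3-hydroxylase complex, by 0.94 ± 0.15, 0.91 ± 0.15 and 0.82 ± 0.15. PPIB, a prolyl isomerase of the secretory pathway, rose by 0.66 ± 0.19, 1.03 ± 0.19 and 0.63 ± 0.19. Its C2 call was lost in those 4 libraries alone (adjusted p = 0.18), without either C2-Epi library (0.094 and 0.099) and without C2-Mes replicate 2 (log2 0.19, adjusted p = 0.28), and its KMT2D call without any library of that lineage (0.053 to 0.10). PLOD2, which directs the cross-linking pattern, rose in EED only by the test (log2 1.10 ± 0.23, adjusted p = 0.0019), beside 0.52 ± 0.23 (0.086) in C2 and 0.35 ± 0.23 (0.22) in KMT2D. SERPINH1, the collagen chaperone HSP47, rose in EED (1.46 ± 0.29) and KMT2D (0.84 ± 0.29, adjusted p = 0.027) and was at 0.74 ± 0.29 in C2 (adjusted p = 0.060), or -0.12 without C2-Mes replicate 2. The KMT2D call of SERPINH1 was lost without any library of that lineage (adjusted p = 0.082 to 0.15). The genes that fell, named after their values were seen, were P3H2, TLL1, ADAMTS3 and LOXL3 in C2, LOXL3 in EED, and TLL1 and LOXL3 in KMT2D.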

How the data were processed

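RNA-seq was run on cultured or sorted HMLER cells, and the deposited values are raw read counts per gene, 1 table for each of 16 libraries. Per the submitters' processing notes the authors used STAR (version 2.7.1a), featureCounts and the GRCh38 build. The annotation release, the use of strand and the treatment of reads with several matches are not given in the sources used here. Symbols came from GENCODE 29, which holds 56868 of 60448 gene identifiers (94.1%); the genes outside it had at most 0.0463% of a library's counts.

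From the deposited counts, edgeR (version 4.0.16, R 4.3.3) tested 12 pairs of groups and 3 interactions in 1 quasi-likelihood model with TMM scaling and a filter on low counts, leaving 18285 genes, 8 groups and 8 residual degrees of freedom. Calls used an adjusted p under 0.05 (Benjamini-Hochberg). On data simulated for sgEED-Mes against sgEED-Epi over 18285 genes, the procedure called 7.46% of genes changed 1.5-fold, 58.2% of those changed 2-fold and 100% of those changed 4-fold. The changed genes were drawn only from those above a minimum mean count, so these rates do not cover members with few counts. Only 67, 67 and 66 genes were changed by these folds, whereas 6673 of 18285 genes were called in the real comparison. With fewer changed genes the adjusted p is stricter, so these rates do not give the sensitivity of the real comparisons. Alternatives were RLE scaling, no filter, DESeq2 (version 1.42.0), a replicate block, a GC content and length correction, a fit of the compared libraries alone and each library left out. Figures were drawn with matplotlib (version 3.10.9).

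The members and gene lists were chosen with earlier results of these data known. All members are accounted for by class. Values by library are given for up to 6 members of each class with the highest group means and for neighbouring pairs, and for up to 6 biosynthesis genes with the highest group means. Others are named for a stated reason. Promoters are from RefSeq (GRCh38.p14), where 31 of 43 members matched.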

Additional observations from a re-analysis of the deposited data

Results flagged for a closer look

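The results here are collagens at 5 CPM or more in at least 1 compared group whose epithelial to mesenchymal change differed between lineages in the interaction term of the edgeR test (log2, adjusted p under 0.05 over all genes); the minimum of 5 CPM was chosen after the data were seen. Before that minimum, 50% of the tested members were called between EED and C2, against 21.1% of all genes. Between KMT2D and C2 these shares were 52.9% and 24.1%, and between KMT2D and EED 32.4% and 20.1%. The share among all genes that reach the minimum was not computed. The causes of these differences were not tested.

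Between EED and C2, 14 genes differed (largest adjusted p = 0.048). The log2 change was lower in EED for COL3A1 (-3.44), COL5A2 (-3.93), COL4A5 (-1.04), COL4A6 (-2.78), COL14A1 (-10.50), COL21A1 (-5.57), COL6A1 (-4.62), COL6A2 (-5.61) and COL6A3 (-1.40). It was higher in EED for COL5A3 (0.98), COL4A1 (2.29), COL4A2 (2.17), COL4A4 (8.004) and COL12A1 (3.60). COL4A4 had no count in C2-Mes and COL14A1 at most a few in C2-Epi, so their values depend on the prior count. COL4A4 did not pass without C2-Epi replicate 1, nor COL5A3 with the replicate block (adjusted p = 0.062), in the 8 libraries alone (0.18) or without any library but C2-Mes replicate 2 and sgEED-Mes replicate 2 (0.073 to 0.13). COL6A3 did not pass in the 8 libraries alone (0.10) or without either C2-Epi library, sgEED-Epi replicate 2 or sgEED-Mes replicate 2 (0.085 to 0.11).

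Between KMT2D and C2, 14 genes differed (largest adjusted p = 0.034). The change was lower in KMT2D for COL1A1 (-2.33), COL3A1 (-2.45), COL5A2 (-4.22), COL14A1 (-10.71), COL16A1 (-1.57), COL6A1 (-4.28), COL6A2 (-5.54) and COL6A3 (-1.86). It was higher in KMT2D for COL4A1 (0.72), COL4A2 (0.81), COL4A5 (0.92), COL12A1 (3.48), COL8A1 (2.48) and COL18A1 (2.61). COL4A1 did not pass without C2-Epi replicate 1, sgKMT2D-Epi replicate 2 or sgKMT2D-Mes replicate 1 (0.062 to 0.071), COL4A2 without any library of C2-Epi or the KMT2D lineage (0.051 to 0.11) and COL14A1 without sgKMT2D-Epi replicate 2 (0.17).

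Between KMT2D and EED, 9 genes differed (largest adjusted p = 0.046). The change was lower in KMT2D for COL1A1 (-2.25), COL4A1 (-1.57), COL4A2 (-1.36) and COL4A4 (-2.38), and higher for COL4A5 (1.96), COL4A6 (3.14), COL21A1 (4.97), COL8A1 (1.99) and COL18A1 (2.21). COL1A1 did not pass without any 1 of the 8 libraries (0.071 to 0.12).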

How the results depend on the processing

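Of 216 counts of calls under settings other than leaving out a library, 205 were within 1.5 times the reported count. In the libraries of a comparison alone, collagens lower in C2-Mes against C2-Epi numbered 3, biosynthesis genes lower there 2, collagens higher and lower in sgKMT2D-Mes against C2-Mes 5 and 6, those higher in C2-Epi against C1 5, those higher in sgControl against C1 10 and those with a higher change in EED than in C2 4. Without the filter 2 were higher in C2-Epi against C1. With the GC and length correction 6 were higher and 7 lower there, and 8 lower in sgKMT2D-Epi against C1. That correction turned COL4A2 in C2-Epi against C1 (log2 0.39), COL5A3 (0.53), COL4A2 (0.48) and COL9A2 (0.13) in sgKMT2D-Epi against sgControl, and COL4A2 (0.17) and COL7A1 (0.18) in sgKMT2D-Epi against C1; the cause was not tested.

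Leaving out each library gave 3 to 7 collagens lower in C2-Mes against C2-Epi (3 without C2-Epi replicate 2) and 2 to 3 biosynthesis genes (2 without C2-Epi replicate 1). Against C1 it gave 1 to 2 higher and 5 to 8 lower in C2-Epi, 3 higher and 2 to 4 lower in sgControl and 4 to 5 higher in sgKMT2D-Epi. The change was higher in EED than in C2 for 4 to 8 and lower in KMT2D than in EED for 3 to 4. In the comparisons with C1, calls over all genes were also fewer than in the full fit whichever library was left out. COL1A1 turned with the C2-Mes library left out, from log2 -1.65 to 0.89 in sgEED-Mes against C2-Mes and from -0.79 to 1.76 in its interaction of EED with C2.

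Of 27 calls in each transition, 23 in C2, 22 in EED and 23 in KMT2D passed under every alternative. Every other comparison and every interaction kept a smaller share of its calls under all alternatives, and C2-Epi against C1 kept the smallest. Deviations of libraries with the same replicate number correlated positively for some pairs of groups and negatively for others (r from -0.459 for C2-Epi and C2-Mes to 0.481 for sgControl and sgEED-Epi), so the numbers are not taken as pairs. With the replicate block the collagens called were 22 and 5 in C2, 22 and 5 in EED and 23 and 4 in KMT2D. In simulation with 2 libraries a group, where far fewer genes were changed than were called in the real data, a 1.5-fold change was seldom called. Members that did not pass may still differ.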

Other observations

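COL6A1 differed more between the C1 libraries, at 149 and 64.8 CPM, than any other of the 10798 genes at 5 CPM or more in that group. Of these genes, 3 (0.0278%) were over 2-fold apart. COL18A1 was 2.21-fold apart in the sgEED-Mes libraries, at 155 and 69.996 CPM, with rank 71 of 10884 genes. In C2-Mes, 6 of 22 collagens at 5 CPM or more were over 2-fold apart, beside 11.87% of all genes at that level, and in the other 5 groups no collagen at that level was.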
